A study of Mus musculus
Rattus norvegicus and Rattus norvegicus and Mus musculus with 18 samples.

Results

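The cholesterol and fatty acid synthesis genes described here are 33 genes: 18 enzymes of the sterol branch, 9 enzymes of the fatty acid branch, 4 regulators or carriers (Srebf1, Srebf2, Insig1 and Stard4) and 2 cholesterol exporters (Abca1 and Abcg1). They were taken by gene symbol from the 2 expression tables of a tumor transplanted from mouse into rat. All 33 were among the 17672 mouse genes, and 31 were among the 14876 rat genes; rat Elovl6 and Scd1 were not analysed here. 4T1 is a mouse mammary carcinoma cell line, and its cells were placed in the mammary fat pads of SRG rats, an immunodeficient strain that accepts mouse cells, with tissue taken at day 27 and no treatment in any group. The necrotic core and the non-necrotic rim of 5 tumors (Rat3867, Rat3869, Rat3875, Rat3876 and Rat3877) were sequenced apart, and 5 lungs came from Rat3869, Rat3875, Rat3876, Rat3877 and Rat3789. References were 2 mammary glands of rats without a transplant and 1 pellet of 4T1 cells. All samples carry the label wildtype, the labels used here give no age or sex of the rats, and all tumors descend from 1 cell line. Each library holds RNA of both species, so mouse genes are read as tumor cells and rat genes as host.

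Cells make cholesterol from acetyl-CoA through the mevalonate pathway and a long series of sterol intermediates, and make fatty acids by chain synthesis on Fasn followed by elongation and desaturation. The SREBP transcription factors, encoded by Srebf1 and Srebf2, raise both branches when membrane sterol is low. Insig proteins hold the SREBP precursors in the endoplasmic reticulum when sterol is plentiful, and Insig1 is itself an SREBP target. Abca1 and Abcg1 export cholesterol, are induced by the LXR sterol receptors, and are known for their high expression in lipid-laden macrophages.

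The tumor and lung libraries held 15346400 to 26669410 mouse reads and 3146720 to 10015352 rat reads over the genes of the tables, so mouse members were measured more deeply than rat members. The mouse epithelial keratin Krt8 stood at 1565 to 2036 CPM (read counts scaled to a common library size, here over all table genes) in the rims and 1626.5 CPM in the pellet. The 6 tested epithelial markers were not steady across sites: 4 fell in the core and 1 rose (Csn3), and 5 fell in the lung against the rim. Epcam was at 235 to 752 CPM in the rims, 168 to 258 CPM in the cores and 40.8 to 109 CPM in the lungs. The lung library of Rat3789 stood apart in its host RNA: the alveolar surfactant gene Sftpc was at 1.88 CPM there against 3126 to 5676 CPM in the other 4 lungs, and the fat cell gene Adipoq was at 61.7 CPM against at most 2.49 CPM. Rat Adipoq was also higher in the rims of Rat3876 and Rat3877 (116 and 32.6 CPM) than in the other rims (at most 5.94 CPM). Summed rat epithelial markers were likewise higher in these rims (741 and 399 CPM) than in the others (71.5 to 139 CPM). In its mouse RNA, the lung of Rat3789 had the lowest summed sterol enzymes of the lungs (547 CPM against 671 to 814 CPM). Its summed mouse fatty acid enzymes were also the lowest (1206.5 CPM against 1427 to 1643 CPM). Counts of called enzymes and regulators are therefore given below with and without these libraries. Levels below are CPM on the authors' scale, listed in the order Rat3867, Rat3869, Rat3875, Rat3876, Rat3877 for core and rim and Rat3869, Rat3875, Rat3876, Rat3877, Rat3789 for lung. A gene is said to have fallen or risen where limma gave a Benjamini-Hochberg adjusted p under 0.05 over all genes tested.

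Divided by exon length, the tumor cells of the rim held the most RNA for the stearoyl-CoA desaturase Scd2, at 141.6 ± 25.5 CPM per exon kb (SD, n = 5). Acly, which makes cytosolic acetyl-CoA from citrate, followed at 66.7 ± 3.43, and the fatty acid synthase Fasn at 45.3 ± 5.08 CPM per exon kb. Insig1 (42.9 ± 10.8) and Hmgcs1 (36.5 ± 6.85), the first committed enzyme of the mevalonate pathway, came next. Levels were not tested between genes. Fdps (2.12 ± 0.561), Acss2 (2.52 ± 0.221) and Tm7sf2 (2.92 ± 0.297) were the lowest of the synthesis enzymes on this per-length scale. The length is the union of all annotated exons of a gene, 10.163 kb for Acss2, and can exceed that of its main transcript. Before this division, mean rim Acss2 (25.6 CPM) lay above Mvd (19.3 CPM) and Mvk (21.2 CPM). No source used here names the strand setting of the counts, so levels are uncertain for the members whose exons overlap another gene in GENCODE vM21 (GRCm38): Hmgcs1, Idi1, Fdps, Fdft1, Lss, Cyp51, Tm7sf2, Acss2, Elovl6, Scd2 and Srebf1. Scd2 (chr19:44293674-44306864) and Scd1 (chr19:44394455-44407879) are neighbours on the same chromosome in GRCm38, as are Fads2 (chr19:10062765-10101746) and Fads1 (chr19:10182888-10196877).

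Core and rim of the same tumors were compared to ask how the tumor cells of the necrotic region differ. Of the 18 sterol enzymes, 16 fell in the core and 0 rose; of all 13070 mouse genes tested, 9.63% fell and 10.1% rose. At an unadjusted p under 0.05 limma gave 1 higher sterol enzyme (Ebp), and edgeR and DESeq2 gave 0. The fatty acid branch went the same way, with 7 of 9 enzymes lower and 0 higher (0 also by unadjusted p, edgeR and DESeq2). The median difference was -0.76 (log2, core minus rim) over the sterol enzymes and -0.56 over the fatty acid enzymes, against 0.01 over all tested genes. The 2 exceptions of the sterol branch were late enzymes: Ebp, the sterol isomerase, differed by +0.44 (adjusted p = 0.0827) and Sc5d, the sterol desaturase, by +0.25 (adjusted p = 0.155). In the fatty acid branch, Acss2, which makes acetyl-CoA from acetate, and Fads1, the delta-5 desaturase, differed by -0.07 and -0.13 and did not pass.

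Within the sterol branch, Idi1, the isopentenyl diphosphate isomerase (chr13:8885501-8892451), changed most. Its level was 11.5, 16.1, 17.5, 18.8 and 9.39 CPM in the cores and 28.3, 38.4, 53.2, 36.2 and 49.0 CPM in the rims. Every core lay below every rim, and Idi1 was 2.82-fold lower in the core (log2 -1.50 ± 0.19 SE, adjusted p = 0.00257). Cyp51, the lanosterol demethylase (chr5:4081145-4104746), was at 41.3, 58.7, 48.4, 54.4 and 34.0 CPM in the cores and 90.1, 110.6, 154, 124 and 134 CPM in the rims. The groups again stood apart, at 2.59-fold lower in the core (log2 -1.37 ± 0.15 SE, adjusted p = 0.00144). Acat2, the cytosolic thiolase that joins acetyl-CoA units (chr17:12942890-12960747), was at 22.9, 28.7, 25.8, 26.0 and 22.1 CPM in the cores and 47.3, 65.1, 70.5, 56.1 and 55.3 CPM in the rims. It was 2.33-fold lower in the core with no overlap (log2 -1.22 ± 0.10 SE, adjusted p = 6.48e-04).

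Hmgcs1 (chr13:119690379-119708260) fell to a similar degree as Acat2, by 1.20 on the log2 scale (adjusted p = 0.00105). Fdps, the farnesyl diphosphate synthase, fell by 1.11, and the methylsterol oxidase Msmo1 by 1.04. The other sterol enzymes that fell did so by 0.51 (Hsd17b7) to 1.00 (Nsdhl), and they span the pathway from mevalonate kinase (Mvk) to the last reductase (Dhcr7). All 16 were lower in the core of 5 of 5 tumors. Without Rat3876 and Rat3877, whose rims held more host fat cell and epithelial RNA, 10 of 18 passed, and 16 of 18 kept a value below 0. In that fit 6 of 9 fatty acid enzymes and 2 of 4 regulators fell. Leaving out Rat3875, whose rim had the highest summed sterol level (1370 CPM against 833 to 1140 CPM in the other rims), also left 10.

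Among the fatty acid enzymes, Elovl6, which elongates palmitate (chr3:129532355-129638495), was at 48.4, 49.6, 50.1, 65.6 and 42.0 CPM in the cores and 93.8, 103, 137, 108 and 129 CPM in the rims. Fads2, the delta-6 desaturase, was at 48.0, 37.5, 41.6, 56.7 and 40.7 CPM in the cores and 98.8, 88.9, 106, 118 and 87.9 CPM in the rims. Both genes stood apart between the regions and were 2.24-fold lower in the core (log2 -1.16 ± 0.14 SE for Elovl6 and -1.16 ± 0.09 SE for Fads2, adjusted p = 0.00184 and 5.06e-04). Scd2 was at 456, 375, 490, 667 and 558 CPM in the cores and 909, 717, 719, 925 and 600 CPM in the rims. The groups overlapped, since the core of Rat3876 lay above the rim of Rat3877, and the fall was smaller (1.53-fold, log2 -0.61 ± 0.14 SE, adjusted p = 0.0166); it was lost without Rat3867 or Rat3875 (adjusted p up to 0.0655).

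Fasn (chr11:120805846-120824547) was at 416, 260, 316, 320 and 325 CPM in the cores and 495, 404, 550, 526 and 502 CPM in the rims. It fell 1.52-fold (log2 -0.61 ± 0.10 SE, adjusted p = 0.00554), lower in 5 of 5 tumors with 1 core above the lowest rim. Acly and the acetyl-CoA carboxylase Acaca fell by 0.52 and 0.56 with no overlap between the groups. Scd1 was at 52.5, 42.8, 56.4, 54.5 and 61.0 CPM in the cores and 54.4, 68.4, 77.9, 60.5 and 112 CPM in the rims. The groups overlapped, and its call (log2 -0.44, adjusted p = 0.0480) was lost under 11 of 16 alternative settings, with adjusted p up to 0.131.

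**Figure D1:**
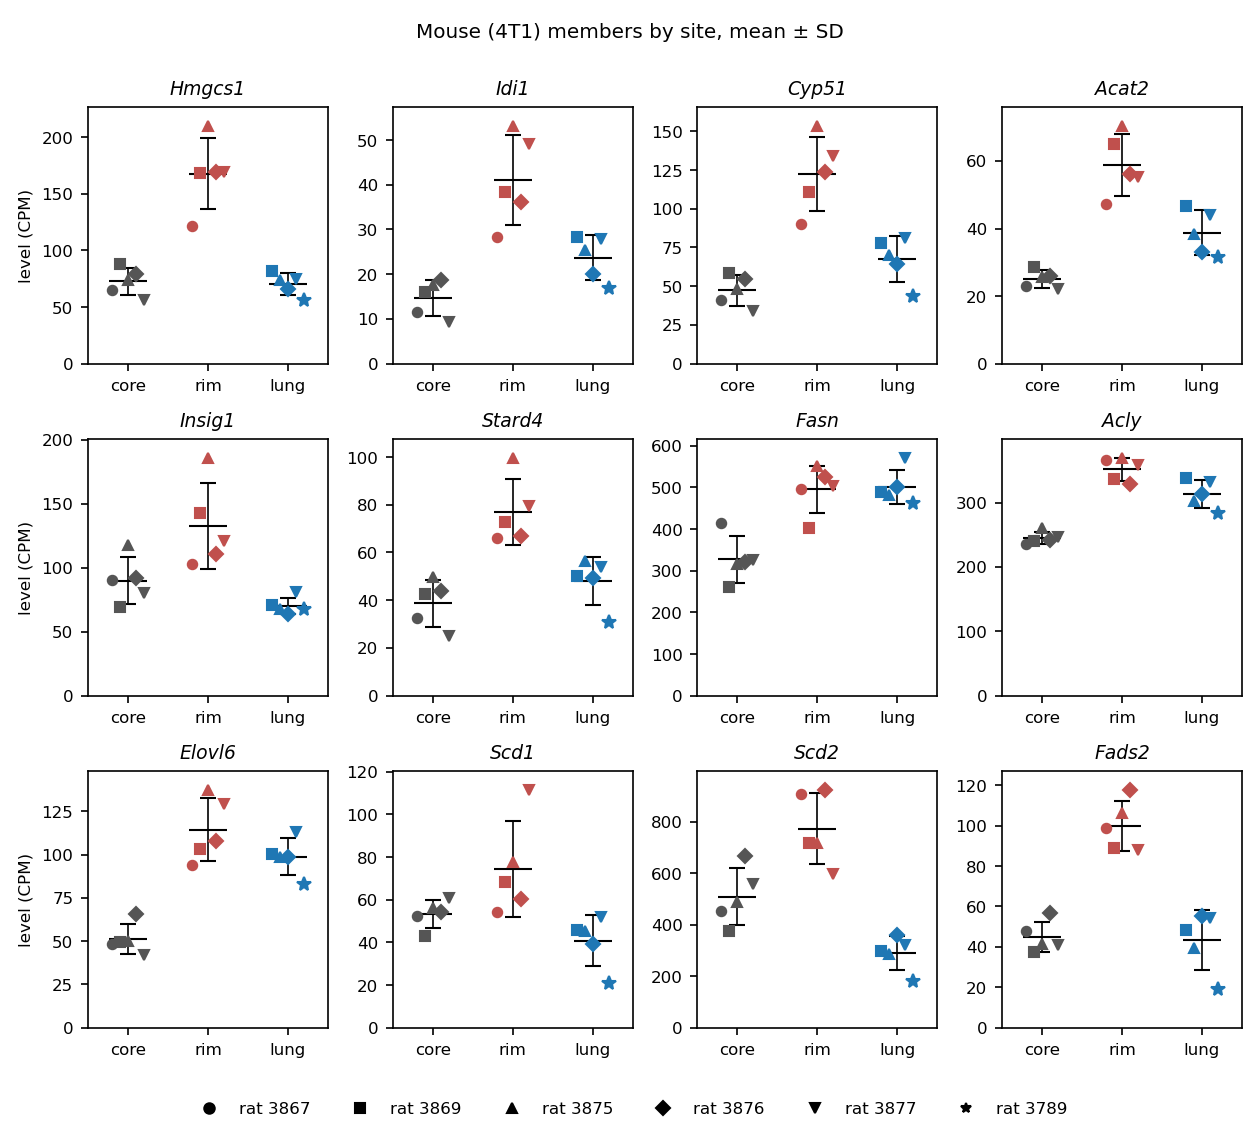
Levels of 12 mouse members (CPM, linear axes from 0) in core, rim and lung libraries; each symbol is 1 rat, the horizontal line is the mean and the bar the SD (n = 5 per site). Cores of Hmgcs1, Idi1, Cyp51, Acat2, Elovl6 and Fads2 lie below every rim, while lung Fasn and Elovl6 sit near the rims and lung Scd2 lies below both tumor regions.

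Of the 4 regulators and carriers, Insig1 and Stard4 fell in the core. Srebf1 was at 126, 97.5, 141, 134 and 129 CPM in the cores and 152, 129, 133, 150 and 157 CPM in the rims, a log2 difference of -0.21 ± 0.10 SE (adjusted p = 0.159). Srebf2, the factor that mainly drives the sterol branch, was at 174, 129, 178, 118 and 112 CPM in the cores and 164, 172, 226, 171 and 209 CPM in the rims. Both overlapped between the regions, and the Srebf2 difference (-0.42 ± 0.13 SE, adjusted p = 0.0548) missed the threshold; it passed under 3 of 16 alternatives. Insig1 was at 90.4, 69.2, 118, 91.9 and 80.4 CPM in the cores and 103, 143, 186, 110 and 121 CPM in the rims. It fell 1.46-fold with overlapping groups (log2 -0.55 ± 0.13 SE, adjusted p = 0.0205), a call lost without Rat3875 (adjusted p = 0.0782). Stard4, a cytosolic sterol carrier, fell 2.02-fold with no overlap (log2 -1.02 ± 0.15 SE, adjusted p = 0.00366).

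The exporters were scarce in tumor cells and too low to be tested. Mouse Abca1 was at 1.57, 0.674, 0.793, 4.43 and 19.4 CPM in the cores, at 0.973, 0.762, 0.119, 4.33 and 0.274 CPM in the rims, and at 0.484 to 1.15 CPM in the lungs. Only the core of Rat3877 exceeded 5 CPM, with 410 reads, and rat Abca1 was also highest in that core (652 CPM). The share of misassigned rat reads in this mouse peak is not given here. Mouse Abcg1 did not exceed 0.768 CPM in any of these libraries. It had 0 to 3 reads per rim or lung library, and misassigned rat reads were expected to make up 28.2% of its level in the rims and 68.2% in the lungs.

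Other tumor cell genes moved beside these. All 8 proliferation markers listed fell in the core (summed level 634 to 982 CPM against 1581 to 2360 CPM in the rims), and 7 of 8 hypoxia response genes rose. Of the epithelial markers, 4 of 6 fell (summed level 2297 to 3765 CPM against 3889 to 4799 CPM). Of 3 tested mouse genes on the fibroblast marker list, 2 rose and 0 fell (log2 -0.73 to 5.47). The macrophage marker list also had 3 tested mouse genes, of which 2 rose and 0 fell (log2 -0.36 to 3.52). Their part in the fall of the synthesis genes was not tested. Of 21 tested genes of sterol transport, sensing and related steps outside the synthesis enzymes, 3 rose (Apoe +1.02, Insig2 +0.57 and Npc2 +0.54) and 1 fell (Aldoc -0.84). A further list held other fatty acid and lipid store genes, including more elongases and lipid synthesis genes. Of its 27 tested genes, 4 rose, among them the mitochondrial importer Cpt1a (+0.75) and the lipase Pnpla2 (+0.67). In the same list 3 fell (Acsl5, Fabp5 and the elongase Elovl7).

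Lung was compared with rim and with core to see how the tumor cells of the lung stand against both regions of the primary tumor. Against the rim, 10 of 18 sterol enzymes fell in the lung and 0 rose, where 10.2% of 12970 tested mouse genes fell and 9.91% rose. The unadjusted limma p, edgeR and DESeq2 also gave 0 higher sterol enzymes. The core-rim comparison above shares these rims. By calls, the fatty acid branch split: the desaturases Scd1, Scd2, Fads1 and Fads2 fell, Acss2 rose, and Acly, Acaca, Fasn and Elovl6 did not pass. These sets of enzymes were not tested against each other. The median difference was -0.60 over the sterol and -0.20 over the fatty acid enzymes, against 0.01 over all tested genes. Without the lung of Rat3789, 8 of 18 sterol enzymes and the same number of fatty acid enzymes (4 of 9) fell, and Acss2 no longer passed. In that fit 3 of 4 regulators fell.

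Other tumor cell genes moved beside these in the lung against the rim. Of the 6 tested epithelial markers 5 fell (median log2 -1.52, summed level 1876 to 2830 CPM against 3889 to 4799 CPM), with Epcam at -3.11 and Cdh1 at -2.54. Of 8 hypoxia genes 3 fell (median -0.82, summed level 486 to 1284 CPM against 1047 to 1606 CPM), and of 8 proliferation markers 2 rose (median 0.29, summed level 1672 to 2359 CPM against 1581 to 2360 CPM). Their part in the differences of the synthesis genes was not tested.

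Hmgcs1 had the largest sterol difference, at 81.7, 74.1, 66.0, 74.9 and 56.3 CPM in the lungs. All lungs lay below all rims, 2.36-fold lower (log2 -1.24 ± 0.14 SE, adjusted p = 3.51e-04), and the difference was -1.16 without Rat3789. Msmo1 was at 96.4, 84.6, 73.7, 92.7 and 51.6 CPM in the lungs against 98.2, 139.9, 196, 140.7 and 167 CPM in the rims. It fell 1.86-fold (log2 -0.89 ± 0.20 SE, adjusted p = 0.010), and the highest lung lay just under the lowest rim. Cyp51 was at 77.8, 70.3, 64.6, 81.1 and 43.9 CPM in the lungs and fell 1.82-fold (log2 -0.87 ± 0.18 SE, adjusted p = 0.00656). The lung of Rat3789 held the lowest value of all 3 genes.

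Scd2 was at 298, 286, 362, 321 and 183 CPM in the lungs, below every core and every rim. It was 2.70-fold lower than in the rim (log2 -1.43 ± 0.18 SE, adjusted p = 5.25e-04). Fads2 was at 48.3, 39.6, 55.4, 54.2 and 19.1 CPM, 2.45-fold lower with no overlap (log2 -1.29 ± 0.25 SE, adjusted p = 0.00495). Scd1 was at 46.1, 45.3, 39.4, 52.1 and 20.9 CPM, 1.85-fold lower with no overlap (log2 -0.89 ± 0.25 SE, adjusted p = 0.0264). Rat Rat3789 was lowest for all 3 desaturases, and without it the log2 differences were -1.28 (Scd2), -1.02 (Fads2) and -0.67 (Scd1), each with adjusted p under the threshold. The Scd1 call was lost without Rat3869, without Rat3875, without Rat3876, and without Rat3876 and Rat3877 together (adjusted p up to 0.106, log2 -0.91 to -0.97). Fads1 fell by 0.52 (adjusted p = 0.00571).

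Fasn was at 488, 481, 501, 571 and 462 CPM in the lungs, within the range of the rims except for Rat3877, whose lung was above all rims. Its log2 difference was 0.02 ± 0.09 SE (adjusted p = 0.906). Acly (-0.17, adjusted p = 0.116), Acaca (-0.19, adjusted p = 0.181) and Elovl6 (-0.20, adjusted p = 0.231) missed the threshold. The rise of Acss2 (+0.32, adjusted p = 0.0476) was lost under 10 of 17 alternatives, with adjusted p up to 0.126.

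**Figure D2:**
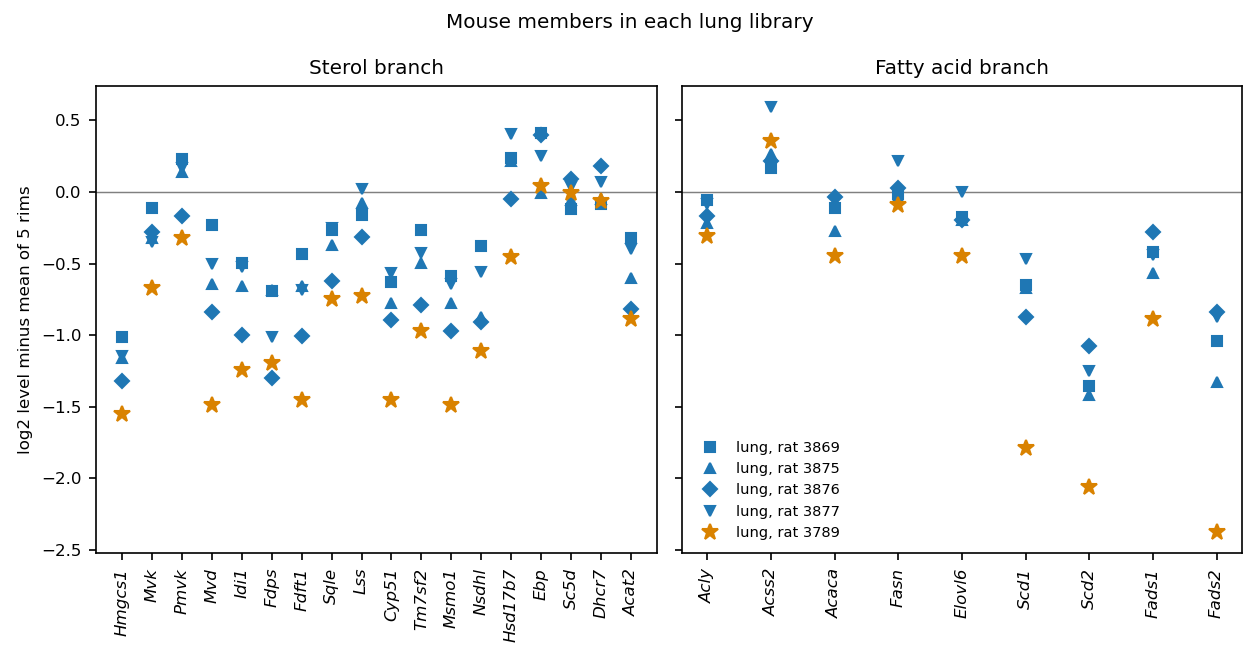
Log2 level of each mouse member in each of the 5 lung libraries, minus the mean log2 level of the 5 rims (grey line at 0), with the sterol branch on the left and the fatty acid branch on the right. Acss2 lies above 0 in every lung, Acly, Acaca, Fasn and Elovl6 lie nearer to 0, and Scd1, Scd2, Fads1 and Fads2 lie below it. The star marks the lung of Rat3789, the lowest for most members shown, among them Scd1 (20.9 CPM), Scd2 (183 CPM) and Fads2 (19.1 CPM).

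Insig1 was at 70.8, 67.8, 64.0, 80.8 and 67.9 CPM in the lungs, below every rim and 1.85-fold lower (log2 -0.89 ± 0.14 SE, adjusted p = 0.00211). Srebf2 was at 128, 137, 114, 149.8 and 124 CPM in the lungs and fell by 0.52 with no overlap (adjusted p = 0.00689), and Stard4 fell by 0.69 (adjusted p = 0.0146). Without Rat3876 and Rat3877 both missed the threshold (adjusted p = 0.0631 for Srebf2 and 0.0851 for Stard4), and Stard4 also missed it without Rat3869. Srebf1 was at 125, 127, 129, 119 and 109 CPM and differed by -0.24 (adjusted p = 0.0518); it passed under 3 of 17 alternatives (edgeR, DESeq2 and misassigned reads subtracted, adjusted p from 0.0164 to 0.0488). Leaving out Rat3876 and Rat3877 removed their lungs as well as their rims. It left 3 rims and 3 lungs, and the lung of Rat3789 was 1 of these 3. The fit gave 851 called genes and 1 sterol enzyme (Hmgcs1, -1.22, adjusted p = 0.0196), while 15 of 18 sterol values stayed below 0. In that fit 3 of 9 fatty acid enzymes and 1 of 4 regulators fell. Without Rat3875 alone 5 sterol enzymes fell, and without Rat3876 alone 6. With counts scaled to the library total, 1717 of the genes called were higher in the lung and 1108 lower, against 1285 and 1318 on the authors' scale, and 9 sterol and 4 fatty acid enzymes fell.

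Lung against core shares the lung libraries with the comparison above, so the values stand side by side and are no second support. Here 7 of 18 sterol enzymes rose in the lung (Acat2, Pmvk, Idi1, Lss, Cyp51, Hsd17b7 and Dhcr7) and 1 fell (Sc5d), where 17.1% of 13058 tested genes rose and 19.1% fell. Of the fatty acid enzymes, 5 of 9 rose (Acly, Acss2, Acaca, Fasn and Elovl6) and 2 fell (Scd2 and Fads1). No regulator passed: limma gave 0 of 4 calls, with adjusted p from 0.0523 (Insig1) to 0.831 (Srebf1); Insig1 was the 1 gene under an unadjusted p of 0.05, and it was called by DESeq2 and not by edgeR. Against the core, 8 of 8 proliferation markers rose in the lung (median 1.42), 8 of 8 hypoxia genes fell (median -1.79) and 3 of 6 epithelial markers fell (median -1.34). Their part in the differences of the synthesis genes was not tested.

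Pmvk, the phosphomevalonate kinase, was at 29.7, 27.8, 22.5, 28.5 and 20.2 CPM in the lungs and 14.0, 18.6, 16.3, 12.7 and 13.4 CPM in the cores. It was 1.72-fold higher in the lung with no overlap (log2 0.78 ± 0.15 SE, adjusted p = 0.00130), a level like that of the rims (20.6 to 29.9 CPM). Dhcr7, the last reductase, was at 34.7, 35.4, 41.5, 38.5 and 35.1 CPM in the lungs and 20.7, 26.3, 26.9, 24.4 and 17.0 CPM in the cores, 1.62-fold higher with no overlap (adjusted p = 0.00132). Idi1 was at 28.3, 25.3, 20.0, 27.8 and 16.9 CPM in the lungs, 1.64-fold above the core with overlap (adjusted p = 0.0176), a call lost without Rat3877 (adjusted p = 0.101). Hmgcs1, in contrast, differed by -0.03 ± 0.13 SE (adjusted p = 0.858) between lung and core.

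Elovl6 was at 100.3, 98.7, 98.7, 113 and 83.0 CPM in the lungs, 1.94-fold above the cores with no overlap (log2 0.96 ± 0.12 SE, adjusted p = 8.75e-05). Fasn stood apart too, 1.54-fold higher in the lung (log2 0.63 ± 0.11 SE, adjusted p = 0.00112). Scd2 went the other way, 1.77-fold lower in the lung than in the core (log2 -0.82 ± 0.18 SE, adjusted p = 0.00387), and by -0.66 without Rat3789. Without Rat3877, 3 sterol and 3 fatty acid enzymes rose. Without Rat3789 the counts were 8 and 5, and 1 of 4 regulators rose (Stard4, +0.48, limma adjusted p = 0.0459). The calls for Cyp51 (5 of 16) and Fads1 (4 of 16) were lost under some alternatives, with adjusted p up to 0.224 and 0.115. The call for Sc5d (-0.26, adjusted p = 0.0487) was lost under 12 of 16 alternatives, with adjusted p up to 0.187. Scaled to the library total, 3053 of the called genes were higher in the lung and 1875 lower, against 2237 and 2499, while 7 sterol and 5 fatty acid enzymes rose.

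**Figure D3:**
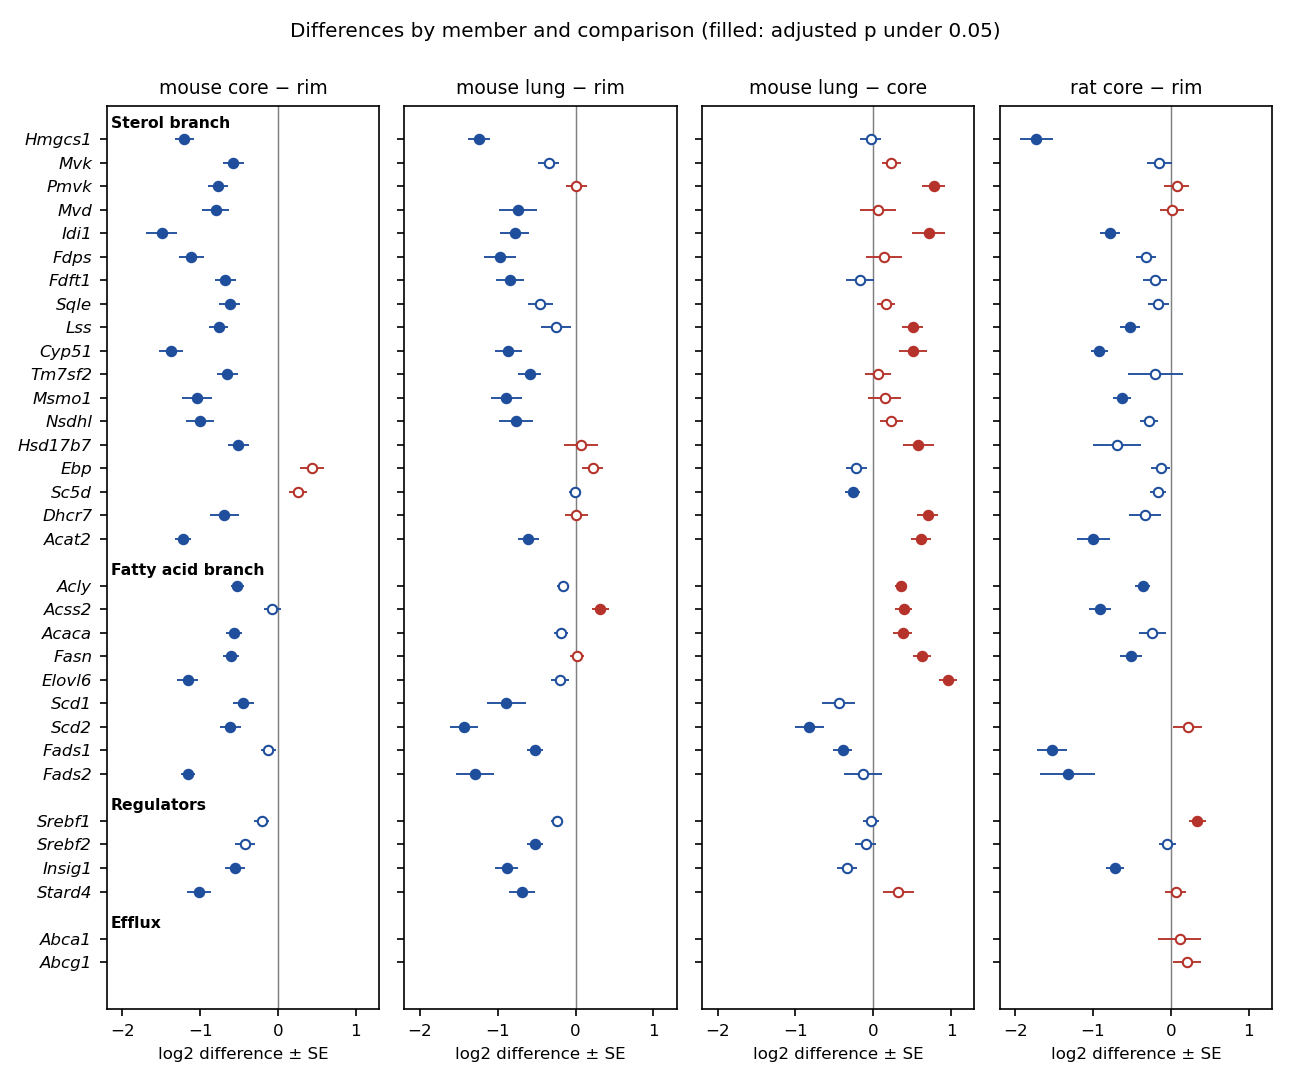
Log2 difference (± SE) of each member in mouse core minus rim, mouse lung minus rim, mouse lung minus core and rat core minus rim, in pathway order; blue marks values below 0, red above 0, and filled points have adjusted p under 0.05. Nearly all mouse members lie below 0 in core minus rim (16 of 18 sterol enzymes filled), while in lung minus rim Acly, Acaca, Fasn and Elovl6 are open and close to 0; members without a point were not tested.

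Host genes of core and rim ask the same question of the rat cells of the tumor. In the rat genes, 6 of 18 sterol enzymes fell in the core (Hmgcs1, Acat2, Idi1, Cyp51, Msmo1 and Lss) and 0 rose, where 20.1% of 13559 tested rat genes fell and 17.5% rose. Of the 7 fatty acid enzymes tested, 5 fell (Fads1, Fads2, Acss2, Fasn and Acly) and 0 rose, with Scd2 and Acaca short of the threshold. No sterol or fatty acid enzyme rose by the unadjusted limma p, edgeR or DESeq2 either (0 each). The median difference was -0.30 over the sterol and -0.51 over the fatty acid enzymes, against 0.00 over all tested rat genes. In bulk tissue, fewer cells of a type and less RNA per cell cannot be told apart, and the host cells of the regions differed: 5 of 5 tested fibroblast markers fell in the core (summed level 2230 to 7437 CPM against 16039 to 32647 CPM), and of 8 macrophage markers 4 rose and 3 fell (summed level 5989 to 9473 CPM against 4003 to 7570 CPM). Of 7 tested fat cell markers 1 fell (165 to 442 CPM against 245 to 1364 CPM). Of 8 host proliferation markers 5 rose and 0 fell (median log2 0.55), whereas all 8 fell in the tumor cells. Of 7 tested host hypoxia genes 5 rose and 0 fell (median 1.18). Their part in the results was not tested.

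Rat Hmgcs1 was at 46.5, 71.7, 68.2, 101 and 49.8 CPM in the cores and 274, 235, 179, 189 and 209 CPM in the rims. Every core was below every rim, 3.31-fold lower (log2 -1.73 ± 0.21 SE, adjusted p = 5.14e-04). Cyp51 was at 82.9, 79.9, 87.3, 112 and 87.7 CPM in the cores and 199, 176, 137, 180 and 159 CPM in the rims, 1.89-fold lower with no overlap (log2 -0.92 ± 0.11 SE, adjusted p = 5.21e-04). Acat2 was at 11.8, 10.2, 10.7, 18.7 and 10.7 CPM in the cores and 39.0, 20.7, 21.5, 21.5 and 21.7 CPM in the rims, 1.99-fold lower with no overlap (adjusted p = 0.00705). Idi1, Msmo1 and Lss fell by 0.78, 0.63 and 0.52. Without Rat3876 and Rat3877, 5 of 18 sterol enzymes, 4 of 7 fatty acid enzymes and 1 of 4 regulators fell; Lss (adjusted p = 0.0750) and Acly (0.139) no longer passed.

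Fads1 had the largest fatty acid difference in the host, at 47.7, 29.5, 46.3, 85.7 and 27.9 CPM in the cores and 173, 110, 143, 125 and 89.7 CPM in the rims. The groups stood apart by a small margin, with the core of Rat3876 just under the rim of Rat3877, at 2.88-fold lower (log2 -1.52 ± 0.19 SE, adjusted p = 5.88e-04). Fads2 was at 12, 4.88, 18.3, 27.0 and 6.68 CPM in the cores and 34.7, 32.2, 26.8, 28.2 and 22.9 CPM in the rims. These overlapped, and the fall (log2 -1.33 ± 0.35 SE, adjusted p = 0.0176) was lost without Rat3867 or Rat3877, with adjusted p up to 0.0586. Acss2 was at 19.6, 20.3, 19.9, 20.2 and 14.3 CPM in the cores and 49.6, 29.0, 37.1, 35.3 and 28.3 CPM in the rims, 1.88-fold lower with no overlap (adjusted p = 0.00178).

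Rat Fasn was at 143, 75.8, 114, 148 and 103 CPM in the cores and 213, 163, 139, 159 and 145 CPM in the rims, 1.43-fold lower with overlap (log2 -0.51 ± 0.14 SE, adjusted p = 0.0199). An expected 14.5% of its core reads are mouse reads misassigned to the rat gene, the highest such share of any rat member. The fall of Fasn, like that of Fads2, was lost without Rat3867 or Rat3877, which left 2 of the 7 fatty acid enzymes. Acly fell by 0.36 and lost its call under 5 of 16 alternatives (adjusted p up to 0.139). Rat Scd2 was at 870, 1006, 960, 1101 and 1134 CPM in the cores and 1177, 1010.3, 981, 715 and 597 CPM in the rims. Its difference of +0.22 (adjusted p = 0.407) turned to -0.16 without Rat3876 and Rat3877, the 2 rims lowest in Scd2.

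Rat Insig1 was at 88.3, 66.0, 115, 88.5 and 96.5 CPM in the cores and 140, 154, 169, 134 and 143 CPM in the rims, 1.65-fold lower with no overlap (log2 -0.72 ± 0.11 SE, adjusted p = 0.00182). Srebf1 was at 89.2, 75.2, 94.9, 103 and 116 CPM in the cores and 79.4, 64.4, 74.2, 88.3 and 69.8 CPM in the rims. It rose by 0.34 in the core (adjusted p = 0.0333), in 5 of 5 tumors with overlapping groups, and lost its call under 7 of 16 alternatives, with adjusted p up to 0.200. Srebf2 was at 151, 128, 164, 150 and 119 CPM in the cores and 166, 146, 135, 131 and 154 CPM in the rims, with no difference past the threshold (-0.05, adjusted p = 0.773).

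The exporters were abundant in the host. Rat Abca1 was at 254, 271, 207, 364 and 652 CPM in the cores and 351, 268, 345, 300 and 233 CPM in the rims, with the core of Rat3877 highest of all. Its log2 difference was 0.12 ± 0.28 SE (adjusted p = 0.771), and it was -0.23 without Rat3877. Rat Abcg1 was at 115, 151, 102, 152 and 217 CPM in the cores and 143, 119, 131, 110 and 116 CPM in the rims (log2 0.21 ± 0.18 SE, adjusted p = 0.404). Of 27 other tested rat genes of sterol handling, 8 rose and 7 fell: the cholesterol 25-hydroxylase Ch25h rose by 1.76, the lysosomal lipase Lipa by 1.04 and the esterifying enzyme Soat1 by 0.69, while Apoe fell by 1.77 and Pltp by 2.02. Of 25 other tested fatty acid genes, 9 rose and 5 fell, against 17.5% and 20.1% of all tested rat genes. Those that rose included the lipid droplet genes Plin2 (+1.79) and Hilpda (+1.77), and those that fell the lipoprotein lipase Lpl (-2.2). Hilpda was also on the hypoxia list.

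**Figure D4:**
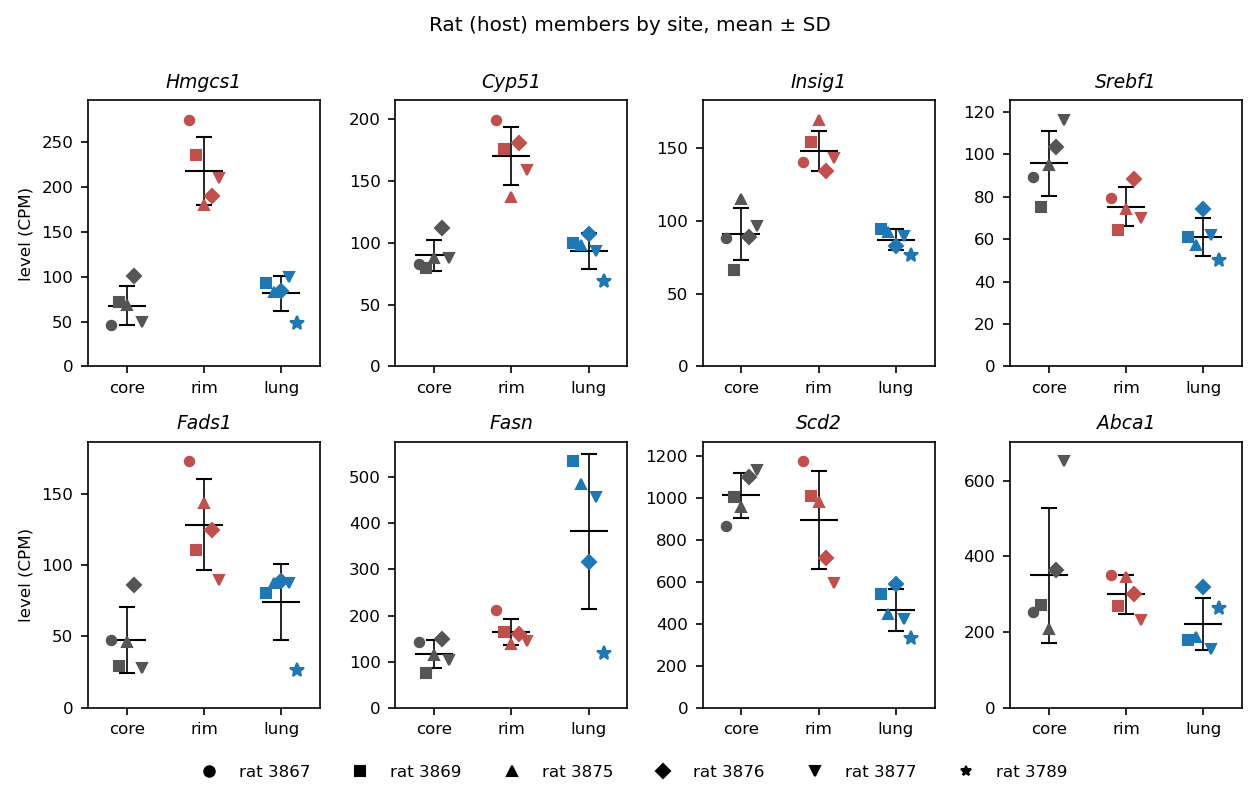
Levels of 8 rat members (CPM, linear axes from 0) in core, rim and lung libraries; each symbol is 1 rat, the line is the mean and the bar the SD (n = 5 per site). Hmgcs1, Cyp51 and Insig1 are lower in every core than in every rim, Abca1 is highest in the core of Rat3877 (652 CPM), and the lung of Rat3789 is the lowest lung for Fads1 and Fasn.

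In the lungs the host values include the lung tissue itself, so they are given as levels only. Rat Fasn was at 535, 486, 317, 458 and 119 CPM, with the lung of Rat3789, whose surfactant RNA was nearly absent, at the level of the tumor libraries. Rat Fads1 was at 80.1, 87.1, 88.5, 87.3 and 26.7 CPM in the same order. Abca1 was at 180, 188, 320, 155 and 262 CPM and Abcg1 at 179, 130, 189, 168 and 112 CPM.

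The core-minus-rim difference of the mouse gene was then set against that of the rat gene in the same 5 tumors, a comparison that answers whether tumor and host cells of a region moved alike. Of 29 members tested in both species, 9 had a lower and 3 a higher difference in the mouse; over all 9741 shared genes tested, the shares were 16.6% and 19.2%. The 6 sterol enzymes with a lower mouse difference were Pmvk, Mvd, Fdps, Nsdhl, Idi1 and Sqle. Pmvk showed the largest gap, with -0.77 in the mouse and +0.08 in the rat (mouse minus rat -0.85 ± 0.17 SE, adjusted p = 0.00552), with -0.65, -0.97, -1.30, -0.51 and -0.81 by tumor. Mvd, the decarboxylase that follows it, was at -0.80 and +0.01 (mouse minus rat -0.82 ± 0.27 SE, adjusted p = 0.0443) and lost its call under 7 of 12 alternatives, with adjusted p up to 0.280. Fdps was at -1.11 and -0.32 (mouse minus rat -0.79 ± 0.16 SE, adjusted p = 0.00656). Pmvk, Mvd and Fdps each had the lower mouse difference in 5 of 5 tumors. Mean mouse Fdps was only 4.17 CPM in the cores and 8.90 CPM in the rims, against 113 and 141 CPM for rat Fdps. The cause of this gap in level was not tested.

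The fatty acid enzymes differed between the species in both directions. Fads1 was at -0.13 in the mouse and -1.52 in the rat (mouse minus rat 1.40 ± 0.21 SE, adjusted p = 0.00166), with 1.83, 1.65, 1.74, 0.37 and 1.41 by tumor. Acss2 was at -0.07 and -0.91 (mouse minus rat 0.84 ± 0.19 SE, adjusted p = 0.00956), with 1.46, 0.37, 0.89, 0.65 and 0.81 by tumor. Scd2 was at -0.61 and +0.22 (mouse minus rat -0.83 ± 0.12 SE, adjusted p = 0.00122), with -0.56, -0.93, -0.52, -1.09 and -1.03 by tumor. All 5 tumors thus had the same sign for each of these enzymes. Of the regulators, Stard4 (-1.08, adjusted p = 0.00215) and Srebf1 (-0.55, adjusted p = 0.0119) had the lower difference in the mouse. Without Rat3876 and Rat3877, Acss2 (0.91, adjusted p = 0.0517) and Srebf1 (-0.45, adjusted p = 0.0821) missed the threshold, and Fads1, Scd2 and Stard4 passed. The 8 proliferation markers all had a lower difference in the mouse (median -1.64), and their part was not tested.

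Hmgcs1, Cyp51, Acat2, Fads2, Fasn and Insig1 were among the members that fell in both species, and for these the difference between the species did not pass. Hmgcs1 differed by +0.52 ± 0.25 SE (adjusted p = 0.137) and Insig1 by +0.17 ± 0.12 SE (adjusted p = 0.282), which does not show that they moved alike. Without Rat3876 and Rat3877, Pmvk alone of the sterol enzymes kept its call. The mouse and rat libraries were scaled separately, so the differences are each relative to the reads of their own species.

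**Figure D5:**
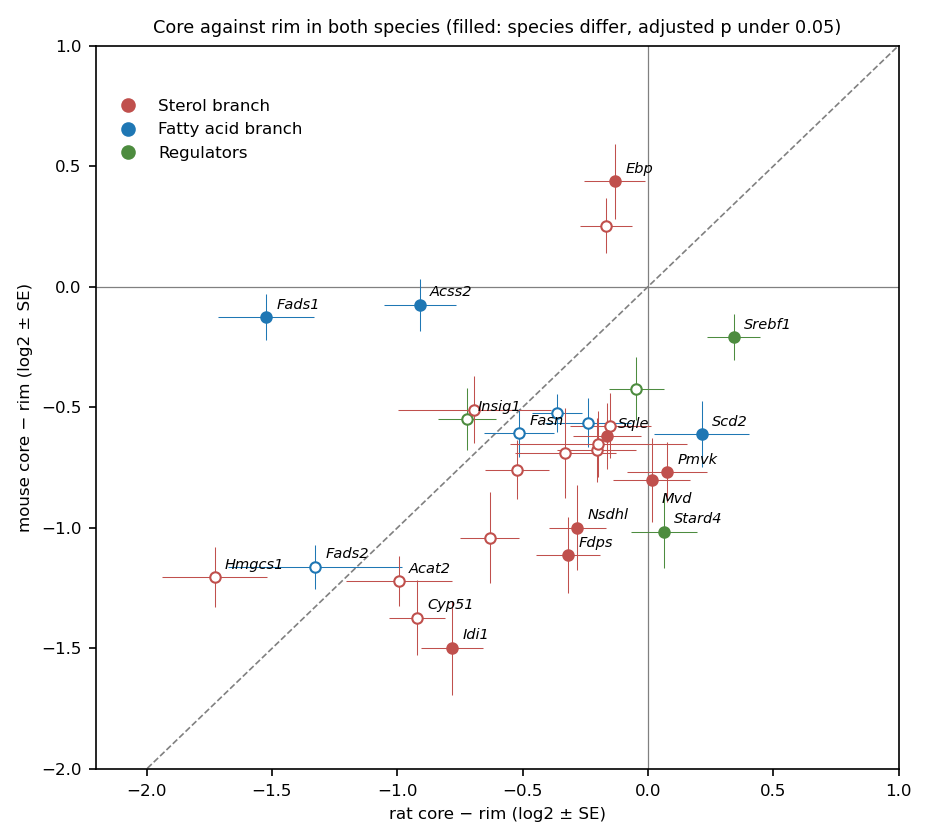
Core-minus-rim log2 difference of 29 members in rat (horizontal) and mouse (vertical), each ± SE; filled points had a species difference with adjusted p under 0.05 and the dashed line marks equal differences. Fads1 and Acss2 lie far above the line, at -0.13 and -0.07 in the mouse, while Pmvk, Mvd, Stard4 and Scd2 lie below it.

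The reference libraries place the members outside the tumor. In the single 4T1 pellet, scaled like the rims to all reads on table genes, 10 of 18 sterol enzymes lay above all 5 rims (Mvk, Pmvk, Mvd, Idi1, Sqle, Cyp51, Msmo1, Nsdhl, Ebp and Acat2) and 2 below (Fdps and Tm7sf2). Over 12817 mouse genes, 28.6% lay above and 49.4% below. Idi1 was at 73.3 CPM in the pellet against 28.1 to 52.6 CPM in the rims, and Acat2 at 106 CPM against 46.9 to 69.6 CPM. Of the fatty acid enzymes, 5 of 9 lay below all rims and the other 4 within them, with Fasn at 275 CPM against 412 to 544 CPM. Abca1 had 0 of 29446694 mouse reads in the pellet. There is 1 pellet, so these differences have no replicate check.

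In the 2 glands, 23 of 31 rat members lay below all 5 rims in both libraries and 1 above, against 57.2% and 14.7% of 13410 rat genes. Hmgcs1 was at 23.9 and 31.4 CPM in the glands against 164 to 263 CPM in the rims on the same scale. Srebf1 was the member above, at 166 and 224 CPM against 61.8 to 88.3 CPM. The glands differed from each other in the fatty acid branch: Fasn was at 62.2 and 1260.5 CPM, Acly at 27.2 and 215.5 CPM, and Acaca at 8.35 and 91.5 CPM. Fat cell RNA moved the same way, with Adipoq at 155 and 878 CPM, and both glands held much muscle RNA (Acta1 at 36081 and 25201 CPM). Their part in these levels was not tested.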

How the data were processed

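PolyA libraries of core, rim and lung (5 each), of 2 glands and of 1 cell pellet were used. The submitters' processing notes name GRCm38 and Rnor_6.0 as builds and list featureCounts, limma, STAR and Trim Galore. No source used here gives tool versions, strand handling or how reads were sorted by species. The authors deposited whole read counts for the control libraries, and for tumor and lung a normalized signal, read here as CPM. Adding 0.5 to a whole number of reads and multiplying by 1 factor per library returns each signal value: 100% of the values came out whole within 0.01 reads, which gave the depth. No replicate pair matched within sampling noise (lowest chi-square per degree of freedom 5.40). Labels do not say whether libraries were prepared apart beyond naming the rat, and gland columns are matched to the gland group only.

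The 33 members, the lists of related and marker genes and the tests were chosen with earlier results of these data known. Log2 deposited values of genes at 1 CPM or more in at least 5 compared libraries were tested with limma 3.58.1 (trend, R 4.3.3), two-sided, with Benjamini-Hochberg adjustment over all genes. Core and rim were paired by the rat named in the labels; deviations of same-rat libraries correlated at -0.18 to 0.24 (mouse) and 0.03 to 0.34 (rat). Lung was compared without a block, since Rat3867 gave no lung and Rat3789 no tumor. The species difference used per-rat differences. Expected misassigned reads were taken from the control libraries. The fits were run on simulated reads with a common spread for all genes and no rat effect, and the species difference on simulated normal values. Their outcome is not given here. Alternatives were other scalings, filters, an added 1 CPM, edgeR 4.0.16, DESeq2 1.42.0 and limma-voom on the recovered reads, blocks, and libraries left out. Values in every library are given for Srebf1, Srebf2, Insig1, Scd1, Scd2, Fasn, Abca1, Abcg1 and, per comparison, the 3 sterol and 3 fatty acid enzymes with the largest difference at a mean log2 CPM of 3 or more. A planned promoter motif search was not run.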

Additional observations from a re-analysis of the deposited data

Results flagged for a closer look

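Of 192 sets of 5 libraries (1 member in 1 site and species), 19 had a library far from the other 4 by Dixon's criterion, which chance meets in about 1 in 20 sets. The lung of Rat3789 gave 9 of the 19. In its host RNA it was lowest for Fads1 (26.7 CPM against 80.1 to 88.5 CPM), Fads2 (6.43 against 16.1 to 20.9), Fdft1 (27.6 against 46.1 to 52.2) and Hmgcs1 (48.3 against 82.6 to 99.2). It was also lowest for rat Idi1 (28.7 against 43.9 to 47.7), Msmo1 (31.5 against 48.7 to 54.8) and Sc5d (25.2 against 49.3 to 53.4). In its mouse RNA, Stard4 was lowest (30.8 against 49.2 to 56.6) and Abcg1, at 3 reads or fewer, highest (0.139 against 0.0179 to 0.0308 CPM). The surfactant gene Sftpc was at 1.88 CPM in this lung, and the part of tissue makeup in these levels was not tested.

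The other outlying libraries were spread over 8 combinations of rat and site. Mouse Ebp was lowest in the rim of Rat3877 (16.3 against 23.1 to 24.4 CPM). Among rat genes in the cores, Acat2 (18.7 against 10.2 to 11.8) and Cyp51 (112 against 79.9 to 87.7) were highest in Rat3876. Acaca was lowest (22.5 against 35.1 to 41.6) and Mvk highest (20.6 against 15.3 to 16.4) in Rat3869. Acss2 was lowest in Rat3877 (14.3 against 19.6 to 20.3) and Ebp in Rat3867 (21.2 against 24.6 to 25.7). In the rims, rat Acat2 was highest in Rat3867 (39.0 against 20.7 to 21.7) and Idi1 lowest in Rat3875 (46.6 against 65.4 to 74.8). Rat Stard4 was lowest in the lung of Rat3869 (37.4 against 46.5 to 50.7).

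For 12 of 29 members, the core-minus-rim difference itself differed between mouse and rat (limma, adjusted p under 0.05). Mouse minus rat on the log2 scale was 1.40 for Fads1, 0.84 for Acss2 and 0.57 for Ebp. It was -1.08 for Stard4, -0.85 for Pmvk, -0.83 for Scd2, -0.82 for Mvd, -0.79 for Fdps, -0.72 for Nsdhl, -0.71 for Idi1, -0.55 for Srebf1 and -0.46 for Sqle. Ebp kept its sign in 4 of 5 tumors and the other 11 in 5 of 5.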

How the results depend on the processing

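Of the members called, 15 of 25 (mouse core against rim), 8 of 13 (rat core against rim), 5 of 18 (lung against rim), 7 of 15 (lung against core) and 4 of 12 (species difference) kept their call under every alternative run, and no called member changed sign. Leaving out 1 rat at a time gave, for mouse core against rim, 1171 to 2284 genes and 10 to 16 lower sterol enzymes; for rat core against rim, 2 to 5 lower fatty acid enzymes. It gave 1239 to 2809 genes and 5 to 10 lower sterol enzymes for lung against rim. For lung against core it gave 2852 to 4901 genes, 3 to 8 higher sterol and 3 to 5 higher fatty acid enzymes, and for the species difference 2 to 8 lower sterol enzymes. Without Rat3876 and Rat3877 together, mouse core against rim had 1668 genes and 10 sterol enzymes, rat core against rim 3091 genes, lung against rim 851 genes and 1 sterol enzyme, and the species difference 2044 genes and 1 sterol enzyme. Fewer samples enter these fits. Pairing by rat moved no count by over 1.5 times: without the replicate block, core against rim gave 2630 mouse and 5049 rat genes, with 15 and 6 sterol enzymes, and with the block lung against rim gave 2362 and lung against core 4650 genes. The species difference rests on per-rat pairs and has no unpaired form.

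Some values that were not called turned sign, and the cause was not tested. Not all of them were near 0 in the main fits. The species difference was -0.36 for Dhcr7 and -0.23 for Acat2, and rat core against rim was 0.22 for Scd2 and 0.21 for Abcg1. In rat core against rim, Mvd became -0.018 (upper-quartile scaling), -0.0027 (misassigned reads subtracted), -0.0014 (DESeq2), -0.017 (limma-voom) and -0.014 (without Rat3876 and Rat3877). That last setting also gave -0.16 for rat Scd2, -0.13 for Stard4, -0.40 for Abca1 and -0.11 for Abcg1. In lung against rim, Pmvk became -0.0013 (limma-voom) and -0.063 (without Rat3876 and Rat3877), Fasn -0.0061 (the same), Sc5d 0.036 (total counts), and Dhcr7 -0.023 (edgeR), -0.028 (DESeq2) and -0.012 (replicate block). In lung against core, total counts gave 0.058 for Hmgcs1 and 0.061 for Srebf1, and the replicate block 0.0088 for Hmgcs1, 0.17 for Fads2 and 0.010 for Srebf1. The species difference without Rat3876 and Rat3877 was 0.044 for Dhcr7, 0.026 for Acat2 and 0.092 for Fasn, and 0.066 for Fasn with misassigned reads subtracted.

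With 1 rat left out, the rat core-against-rim values ran from -0.013 to 0.23 for Pmvk, -0.10 to 0.11 for Mvd, -0.57 to 0.10 for Tm7sf2, -0.13 to 0.035 for Srebf2, -0.075 to 0.13 for Stard4 and -0.23 to 0.33 for Abca1. Lung against rim ran from -0.11 to 0.092 for Pmvk, -0.096 to 0.20 for Hsd17b7, -0.062 to 0.024 for Sc5d, -0.063 to 0.080 for Dhcr7 and -0.044 to 0.073 for Fasn. Lung against core ran from -0.15 to 0.044 for Hmgcs1, -0.063 to 0.25 for Mvd, -0.013 to 0.17 for Tm7sf2, -0.056 to 0.30 for Msmo1, -0.27 to 0.14 for Fads2 and -0.13 to 0.0069 for Srebf1. The species difference ran from -0.19 to 0.42 for Hsd17b7, -0.23 to 0.037 for Fasn and -0.16 to 0.46 for Fads2. Mouse Abca1 and Abcg1 were limited by depth, at 0 to 3 reads for Abcg1 per rim or lung.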
